A study of Mus musculus with 6 samples.

Results

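Complement genes were followed across the immune cells of glioma-bearing mouse brain in a single-cell RNA sequencing matrix. The set was a list of 9 genes of the 31053 in the matrix, chosen by symbol: the 3 chains of C1q (C1qa, C1qb and C1qc), the components C3 and C4b, the anaphylatoxin receptors C3ar1 and C5ar1, the integrin chain Itgam and the regulator Cfp. All 9 had 1 row each. CD45+ cells had been sorted from the right hemisphere of female SCID mice, 8 weeks old at implantation by the protocol and labelled 6 to 8 weeks, that carried intracranial xenografts grown from 50000 cells of U87, an established human glioma line. In 3 mice the U87 cells expressed IL-33 and the hemisphere was taken after 3 weeks, and in 3 mice they carried the empty pcDNA vector and it was taken after 6 weeks. SCID mice have no mature T or B cells, so the immune cells were innate, and the time of collection cannot be told apart from IL-33 status.

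Complement is a cascade of plasma and tissue proteins that marks surfaces for uptake by phagocytes. C1q, built from the products of 3 genes, starts the classical pathway, whose next step cleaves C4 and then C3. Fragments of C3 are bound by the integrin CR3, whose alpha chain is encoded by Itgam (CD11b), and the small fragments C3a and C5a act through C3ar1 and C5ar1. Properdin, encoded by Cfp, stabilises the C3 convertase of the alternative pathway. In the brain, microglia are known as the main makers of C1q, and C1q and C3 take part in the tagging of synapses for removal.

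In GRCm38, C1qa (chr4:136895917-136898803), C1qc (chr4:136889804-136893065) and C1qb (chr4:136880129-136886187) lie side by side on the minus strand within 18675 bp of chromosome 4. C3 (chr17:57203970-57228136) and C4b (chr17:34728380-34743882) are on the minus strand of chromosome 17, C3ar1 (chr6:122847138-122856161) on that of chromosome 6, C5ar1 (chr7:16246743-16259540) on that of chromosome 7 and Cfp (chrX:20925454-20931555) on that of the X chromosome. Itgam (chr7:128062640-128118491) is on the plus strand of chromosome 7. All 9 are annotated as protein-coding.

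Since the C1q chains moved together across the cell groups (given with their values further on), the bases before the starts of C1qb and C1qc are shown. They are RefSeq sequences of GRCm38.p6, minus strand, read 5′ to 3′, and hold the 250 bases before the RefSeq start of C1qb (chr4:136886201-136886450) and the 99 bases of the C1qc window that lie before the gene as GENCODE draws it (chr4:136893066-136893164). Capitals mark matches on either strand to AGGAAG, a core bound by the myeloid factor PU.1.

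C1qb: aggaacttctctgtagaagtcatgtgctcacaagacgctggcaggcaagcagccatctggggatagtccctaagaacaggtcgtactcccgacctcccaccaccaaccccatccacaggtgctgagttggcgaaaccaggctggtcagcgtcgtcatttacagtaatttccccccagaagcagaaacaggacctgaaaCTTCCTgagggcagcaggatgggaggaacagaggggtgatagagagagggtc
C1qc: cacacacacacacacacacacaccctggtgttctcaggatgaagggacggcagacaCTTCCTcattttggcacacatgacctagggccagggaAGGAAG

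C1qb held 1 match and C1qc 2 in their 250 bases. Of all 32851 mouse windows of 250 bases, 29.5% held at least 1 such match. Of the 7 members with a window in that table, C1qb, C1qc, C5ar1 and Itgam held the core. The 3 matches of C5ar1 lie within the gene as GENCODE draws it, since only 48 bases of its window come before that gene. C3, with 1 match, was the only one of the 7 with TTGCNNAA, a C/EBP motif found in 9.56% of all windows. A match is only a run of letters, and whether a factor binds there was not tested.

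The matrix joined the libraries of the 6 mice. Barcodes carry a suffix from 1 to 6, 1 for each library, but neither the sample labels nor the matrix name the mouse or group of a suffix. The study lists cell numbers and median UMIs by library, and those of the suffixes match them. That match was not used, since groups were taken only from the sample labels and not from values in the data. The matrix was therefore handled as 1 sample: IL-33 and pcDNA xenografts were not compared, no p-values are given, and suffixes serve only to show a range. Of 40411 barcodes, 38751 passed the filters of the study, with 9745192 to 24393841 unique molecular identifiers (UMIs, each a captured transcript) and 2739 to 10044 kept cells per suffix. Levels are UMIs of a gene per 1000000 UMIs of a cell group (CPM), with exact Poisson 95% intervals, and shares of cells have exact binomial 95% intervals. Both cover counting error only.

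A share of the cells may not be independent between libraries. Of 29579 barcode sequences, 3890 occurred under more than 1 suffix, and 14489 kept cells (37.4%) carried such a shared sequence. Pairs of suffixes shared 509 to 3428 sequences, and over the shared barcodes of a pair the logarithms of the UMI totals correlated with r from 0.22 to 0.91 across the 15 pairs, a description of libraries that differ in depth. Cells with a shared sequence were shallow, at a median of 927 UMIs against 3117 for the 24262 cells with an unshared one. Whether they are cells read in several libraries was not tested, so values are also given for cells with an unshared barcode.

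Cells were placed in groups by marker genes, none of them a complement gene, and the groups are ranges set by limits on markers rather than cell types. Microglia-gated cells, defined by 8 genes such as P2ry12 and Tmem119, made up 35806 of the kept cells (92.4%). Within them, the gates were named homeostatic (11502 cells with high microglial genes and Apoe under 0.5% of UMIs), Ccl2-high (3002), Lpl-Fam20c (818), interferon (642), replication (488), MHC class II (376), mitosis (222), low-RNA Ddit4 (2832 cells under 1200 UMIs) and other microglia (15924). Outside them were 617 shallow phagocyte-gated cells rich in Apoe with Spp1, 207 NK-gated, 90 granulocyte-gated, 210 monocyte-gated and 83 Cd209a dendritic-gated cells, 237 cells with choroid plexus genes despite the CD45 sort, and 1451 other cells. Border macrophages (11 cells) were too few to be described, and 39 cells that met more than 1 lineage gate were left out. Microglia were not counted as a lineage in this step. A cell with markers of 1 other lineage was kept under that lineage, whatever its microglial UMIs. Limits ran through continuous ranges: 1772 cells lay within 0.1 percentage points of the microglial limit, 2289 within 0.1 of the Apoe limit and 1531 within 0.03 of the Ccl2 limit.

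The microglial list took a median of 1.46% of UMIs in microglia-gated cells, 0.243% in NK-gated, 0.261% in granulocyte-gated, 0.0658% in monocyte-gated and 0.0690% in dendritic-gated cells. Shared barcodes were spread unevenly over the gates. They held 98.7% of the low-RNA Ddit4 cells, 88.8% of the phagocyte-gated and 55.5% of the other microglia, but 4.05% of the homeostatic and 14.1% of the Ccl2-high cells. Results on the low-RNA Ddit4 gate thus rest almost wholly on shared barcodes, with 36 cells left without them.

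**Figure D1:**
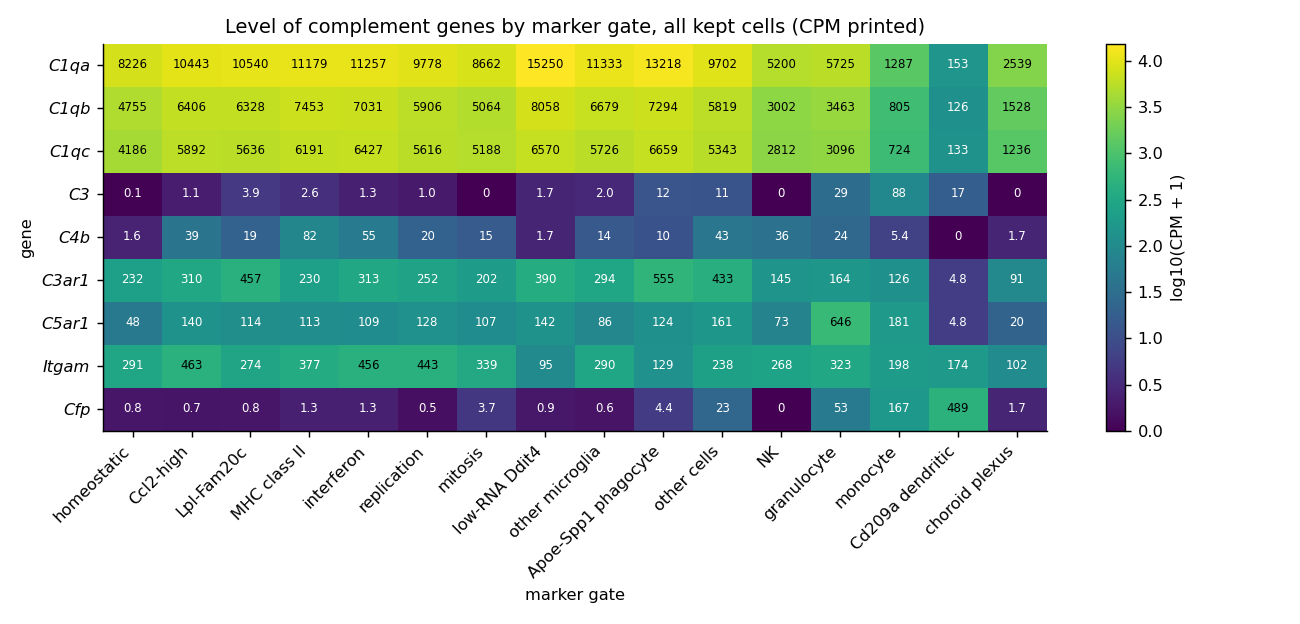
Levels of the 9 complement genes (rows) in the 16 marker gates with at least 50 cells (columns), over all kept cells. Colour is log10(CPM + 1) and the printed values are CPM. The 3 C1q genes are bright from homeostatic (C1qa 8226 CPM) to phagocyte-gated cells (13218 CPM), while C3 and Cfp have their highest values in the monocyte and dendritic columns (88.2 and 489 CPM).

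C1q, the recognition molecule of the classical pathway, was at high levels in every microglial gate. In microglia-gated cells C1qa, C1qb and C1qc had 10037, 5915 and 5183 CPM, so that the sum of the 3 chains took 21135 CPM (95% interval 21104 to 21165). Across the 6 suffixes the sum ranged from 18298 to 23376 CPM with a median of 20976. Suffix 3 was the lowest, and the others ran from 20557 to 23376 CPM. After each cell was thinned to 1000 UMIs, 97.0% of 27633 microglia-gated cells had all 3 chains, 2.95% had 2, 0.0941% had 1, and none (0 cells) lacked C1q.

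Homeostatic microglia had the lowest C1q sum of the microglial gates, at 17167 CPM (suffixes 16207 to 18268, median 17180). Ccl2-high cells had 22741 CPM (19441 to 24915, median 22727), interferon cells 24715 CPM (22579 to 26634, median 25622) and MHC class II cells 24823 CPM. The suffix range of the homeostatic gate did not overlap those of the Ccl2-high and interferon gates. Mitosis cells came next above homeostatic cells at 18914 CPM, and ran from 15795 to 21771 CPM over suffixes, across the homeostatic range. Their ratio to the homeostatic gate was 1.10 (0.917 to 1.21 over suffixes), above 1 in 4 of 5 suffixes. The lowest rank is thus not settled between homeostatic and mitosis cells. The ratio to the homeostatic gate was 1.32 for Ccl2-high (1.16 to 1.42 over suffixes), 1.31 for Lpl-Fam20c (1.14 to 1.35) and 1.44 for interferon (1.24 to 1.57), each above 1 in 6 of 6 suffixes. With unshared barcodes these ratios were 1.30, 1.23 and 1.42.

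The order of the gates above this was less firm. The low-RNA Ddit4 gate led with 29878 CPM, followed by phagocyte-gated cells with 27171 CPM. In cells with unshared barcodes the phagocyte-gated value was 22293 CPM in 69 cells and that of other microglia 20462 CPM instead of 23738, so that MHC class II (24387 CPM) and interferon (24262 CPM) led the gates with at least 50 cells. MHC class II and interferon did not differ beyond their spread, since the first was higher in 1 of 3 suffixes. The low-RNA Ddit4 and phagocyte gates are also the shallowest microglial and phagocyte gates, at medians of 795 and 1040 UMIs, and the part of depth in their C1q level was not tested.

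The 3 chains kept close to 1 ratio. C1qa made up 47.5% of the C1q UMIs of microglia-gated cells (46.8 to 48.3% over suffixes), C1qb 28.0% (27.3 to 29.4%) and C1qc 24.5% (23.6 to 25.5%). Differences between gates were a few percentage points. C1qa had 45.9% in Ccl2-high cells (suffixes 45.04 to 47.18%), 47.9% in homeostatic cells (46.9 to 49.1%) and 51.0% in low-RNA Ddit4 cells (47.3 to 52.7%). The ranges overlap from one gate to the next, but within suffixes C1qa had the lower share in Ccl2-high than in homeostatic cells in 6 of 6. In low-RNA Ddit4 cells it had the higher share in 5 of 6. Nearly all cells of the low-RNA Ddit4 gate carry shared barcodes, so its suffixes may not be separate observations. In NK-gated cells C1qa was 47.2% of 7356 C1q UMIs (binomial interval 46.1 to 48.4%). The dendritic gate had 37.0% of 173 UMIs (binomial interval 29.8 to 44.7%).

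C1q was also counted in cells that are not known to make it. NK-gated cells had 11014 CPM (10763 to 11268), and the values in the 3 suffixes with at least 20 such cells were 9978, 11226 and 14037 CPM. Microglia-gated cells stood 1.92 times above them (interval 1.88 to 1.96, suffixes 1.48 to 2.06), and 1.85 times with unshared barcodes. Transcripts of microglia found in these cells should keep the ratios they have in microglia, so 11 other microglial genes such as Cst3, Csf1r and Trem2 were used as a yardstick. In NK-gated cells they stood at 35.8 to 57.1% of their microglial level, with a median of 45.2%. C1qa, C1qb and C1qc stood at 51.8, 50.8 and 54.3%, within that range. Both ends of the range (Tmem119 and Selplg) are genes that also define the microglial gate, as are P2ry12 and Gpr34. The yardstick genes outside the gate list stood at 43.2% (Trem2) to 51.6% (Ctss). C1qb lay within this narrower range, and C1qa and C1qc lay above it.

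The C1q level of NK-gated cells rose with the UMIs of the 8 microglial gate genes, called microglial UMIs here. Not all of these genes keep 1 ratio outside microglia. In dendritic-gated cells Selplg stood at 15.6% of its microglial level, against 0.614% for Gpr34, 0.749% for P2ry12 and 1.23% for Tmem119. A few UMIs of the list are therefore not a sure sign of microglial transcripts. The 14 NK-gated cells without a UMI of the 8 microglial gate genes had 199 CPM (54.2 to 510), the 87 with 1 to 4 had 545 CPM (436 to 673), the 21 with 5 to 19 had 8250 CPM and the 85 with 20 or more had 15862 CPM (15485 to 16246). In the 14 without such UMIs the ratio of microglia-gated to NK-gated cells was 106.1. Granulocyte-gated and monocyte-gated cells with 20 or more microglial UMIs had 16772 and 11709 CPM, against 668 and 552 CPM at 1 to 4. Without a microglial UMI, monocyte-gated cells had 240.5 CPM and granulocyte-gated cells 1518 CPM (951 to 2299), above their value at 1 to 4. Cd209a dendritic-gated cells had 412 CPM, 51.2 times below microglia-gated cells (44.2 to 59.8). The source of the microglial UMIs in these cells was not tested.

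**Figure D2:**
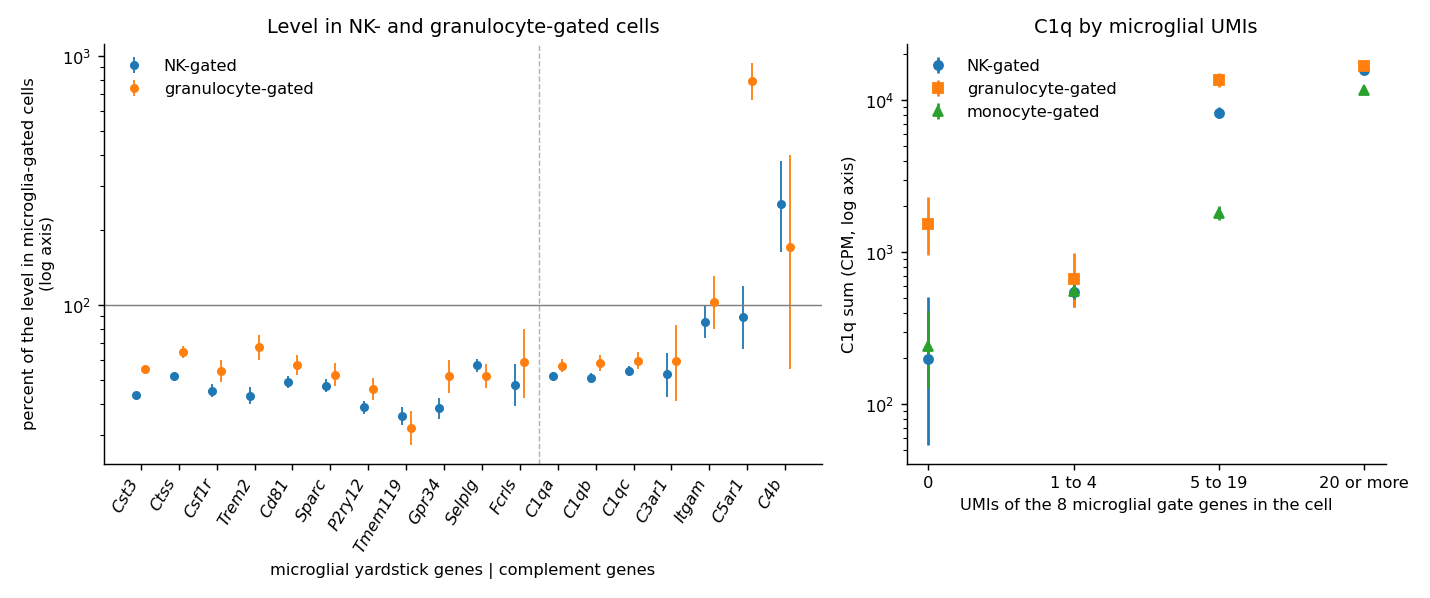
Left, the level of 11 microglial yardstick genes and 7 complement genes in NK-gated and granulocyte-gated cells as a percent of their level in microglia-gated cells (log axis, bars are exact Poisson 95% intervals). The C1q chains and C3ar1 lie within the range of all yardstick genes, some of which also define the microglial gate. C5ar1 in granulocyte-gated cells lies far above that range at 790%. Right, the C1q sum in CPM (log axis, same intervals) by the number of UMIs of the 8 microglial gate genes, rising from 199 to 15862 CPM in NK-gated cells.

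C4b, the mouse C4 that follows C1 in the classical pathway, was low in total but uneven over the microglial gates. It had 1435 UMIs in 2.39% of kept cells. Homeostatic cells had 1.56 CPM (1.18 to 2.04), and 0.898 to 3.33 CPM over suffixes with a median of 1.42. Ccl2-high cells had 39.2 CPM (35.4 to 43.3), and 24.1 to 57.0 CPM over suffixes with a median of 37.6. No suffix of one gate reached the range of the other, and the ratio was 25.1 (18.8 to 34.0), above 1 in 6 of 6 suffixes with 9.88 to 43.0, and 26.9 with unshared barcodes. Counts are small behind the lower value, with 54 UMIs in the homeostatic gate, and with no Apoe limit in that gate the log2 ratio was 3.11 instead of 4.65.

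The highest C4b levels were in MHC class II cells, at 81.7 CPM (67.9 to 97.4), and interferon cells, at 54.6 CPM (45.5 to 65.0). Of the 376 MHC class II cells, 261 came from suffix 1, and without that suffix the gate had 51.2 CPM (31.7 to 78.3) from 21 UMIs. Interferon cells ran from 27.4 to 79.9 CPM over suffixes, so the 2 gates did not differ beyond their spread. Lpl-Fam20c cells had 19.4 CPM, with 1 suffix at 0 and the highest at 42.7 CPM, and all 50 of their C4b UMIs came from unshared barcodes (24.8 CPM). Low-RNA Ddit4 cells had 1.75 CPM from 4 UMIs, and phagocyte-gated cells 10.3 CPM, or 67.4 CPM from 5 UMIs with unshared barcodes.

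Shares of cells followed the same order. A C4b UMI was found in 8.36% of Ccl2-high and 0.409% of homeostatic cells, at medians of 3249.5 and 2913 UMIs, and in 3.16 and 0.209% after thinning to 1000 UMIs. NK-gated cells had 5.31% (2.56% after thinning) at a median of 2694 UMIs and a level of 35.9 CPM, or 254% of the microglial level. Of their 24 UMIs, 13 came from the 21 cells with 5 to 19 microglial UMIs and none (0) from the 14 without and the 87 with 1 to 4, where in the 87 cells a count of 0 allows up to 18.998 CPM. The other 11 came from the 85 with 20 or more. C4b in NK-gated cells was thus counted only in those with 5 or more microglial UMIs, but did not rise with their number. Its source was not tested, and the NK share gives no background level for microglia. C4b has a close paralog, C4a, which had no row under that symbol and was not analysed. Reads that fit both genes may not have been counted.

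C3, on which all complement pathways converge, was barely counted in these cells. It had 249 UMIs, in 215 of the kept cells (0.555%). Monocyte-gated cells held 82 of them, at 88.2 CPM (70.2 to 110), with 55.4, 76.8 and 80.7 CPM in the 3 suffixes with at least 20 such cells. The level over all monocyte-gated cells is above all 3, as it also holds cells from suffixes with fewer than 20. The 3 values thus understate the spread. Microglia-gated cells had 1.13 CPM (0.917 to 1.37), and 0.467 to 1.58 CPM over suffixes, none of which reached the 3 monocyte values. Monocytes with no microglial UMI had 37.0 CPM (4.48 to 134, 2 UMIs). Those with 1 to 4 had 126 CPM and those with 20 or more had 17.8 CPM (3 UMIs).

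In the other gates the counts were small. Granulocyte-gated cells had 6 C3 UMIs (28.9 CPM, 10.6 to 63.0) and dendritic-gated cells 7 (16.7 CPM). Phagocyte-gated cells had 8 (11.8 CPM) and other cells 36 (11.4 CPM), and the intervals of these 4 levels overlapped. Homeostatic cells had 2 UMIs in 11502 cells (0.0579 CPM). NK-gated, mitosis and choroid plexus cells had 0, which in NK-gated cells allows up to 4.49 CPM. Within microglia the C3 level is too low to be ordered.

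**Figure D3:**
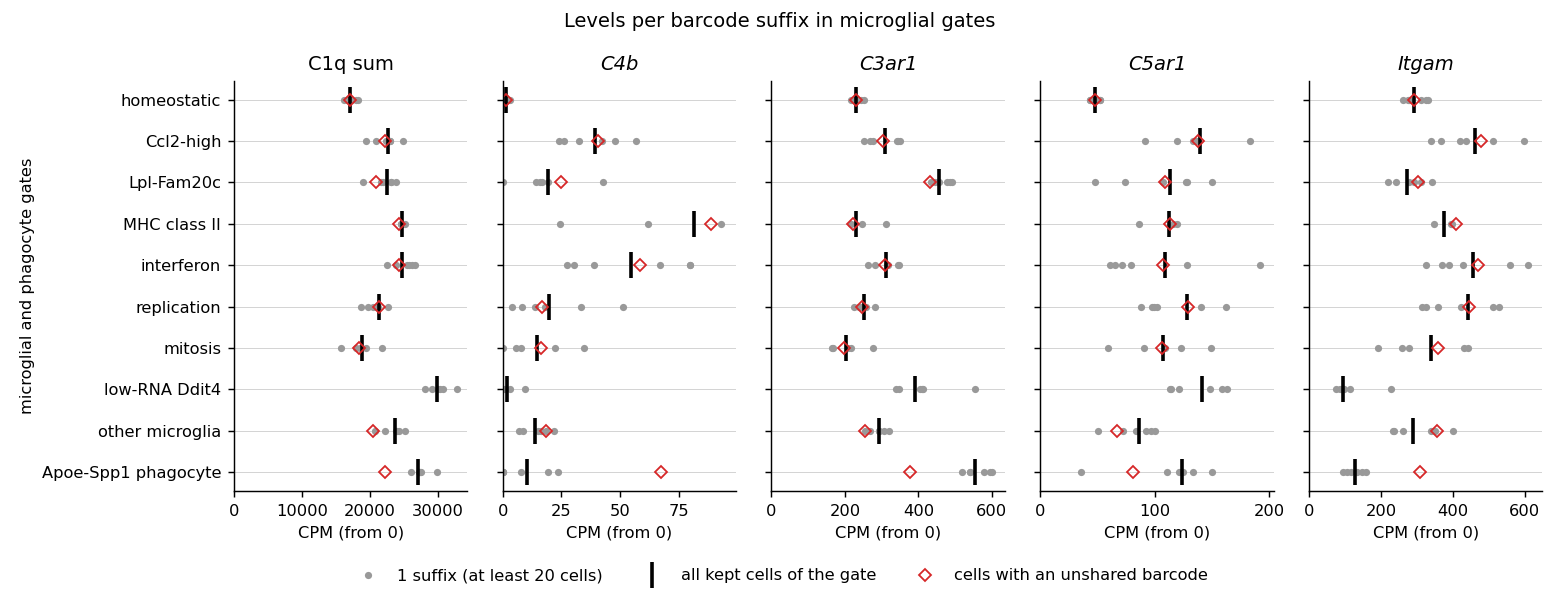
Levels in CPM (linear axes from 0) of the C1q sum, C4b, C3ar1, C5ar1 and Itgam in the microglial gates and the phagocyte gate. Grey points are barcode suffixes with at least 20 cells of the gate, black ticks all kept cells and red diamonds cells with an unshared barcode, drawn where there are at least 50. The diamonds sit on or near the ticks in homeostatic and Ccl2-high cells and away from them in phagocyte-gated cells, where Itgam is 129 CPM in all cells and 310.2 CPM in cells with an unshared barcode.

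C3ar1, the receptor of the anaphylatoxin C3a, was found in microglia-gated cells at 276 CPM (273 to 280), with 247 to 310 CPM over suffixes and a median of 274. Homeostatic cells had 232 CPM (215 to 252 over suffixes, median 232) and Lpl-Fam20c cells 457 CPM (434 to 490.2, median 466). All 6 suffixes were higher in the Lpl-Fam20c gate, with ratios of 1.78 to 2.11 around 1.98 (1.86 to 2.10), and the ratio was 1.87 with unshared barcodes. In Ccl2-high cells it was 310 CPM, a ratio of 1.34, and in MHC class II cells 230.5 CPM, a ratio of 0.996 (0.892 to 1.11). Phagocyte-gated cells had the highest value, 555 CPM (518 to 601 over suffixes), which was 378 CPM in the 69 cells with unshared barcodes.

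NK-gated and granulocyte-gated cells had 145 and 164 CPM of C3ar1. These levels are 52.6 and 59.4% of the microglial level, within the range of all yardstick genes. In both gates the cells with no microglial UMI had 0 C3ar1 UMIs, which allows up to 149 and 207 CPM. Those limits lie above the levels over all cells of the 2 gates, so the counts of 0 cannot tell whether C3ar1 was lower there. Monocyte-gated cells had 126 CPM (104 to 151), or 45.6% (37.7 to 54.6%) of the microglial level. The yardstick genes there stood at 6.23 to 41.3%, with a median of 13.5%, so the C3ar1 interval overlaps the top of their range. At 1 to 4 microglial UMIs monocyte-gated cells kept 112 CPM (85.1 to 145). Cd209a dendritic-gated cells had 2 UMIs (4.77 CPM). Other cells had 433 CPM, or 393 CPM with unshared barcodes, where the microglial list took a median of 0.364% of UMIs.

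C5ar1, the receptor of C5a, had its highest level in granulocytes. Granulocyte-gated cells had 646 CPM (542 to 765), with 686, 753 and 769 CPM in the 3 suffixes with at least 20 such cells, against 81.8 CPM (51.8 to 105 over suffixes) in microglia-gated cells. No microglial suffix came near these 3 granulocyte values. The level over all granulocyte-gated cells is below all 3, as it also holds cells from suffixes with fewer than 20. The 3 values thus understate the spread. The 16 granulocyte-gated cells with no microglial UMI had 1587 CPM (1006 to 2382, 23 UMIs), while C1q in them was 1518 CPM against 21135 CPM in microglia-gated cells. Monocyte-gated cells were next with 181 CPM (154 to 210), at 283, 157 and 113 CPM by suffix, which overlapped the range of Ccl2-high cells.

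Within microglia C5ar1 was lowest in the homeostatic gate, at 48.0 CPM (43.4 to 52.7 over suffixes, median 47.0). Ccl2-high cells had 140 CPM (91.7 to 183, median 135), clear of that range in every suffix. The ratio of 2.92 (2.72 to 3.14; 1.99 to 3.52 over suffixes) was 2.91 with unshared barcodes. Lpl-Fam20c, MHC class II and interferon cells had ratios of 2.37, 2.35 and 2.27, and the suffixes ran from 1.04 to 2.95 in the first of these. After thinning to 1000 UMIs, 12.54% of Ccl2-high and 4.48% of homeostatic cells had a C5ar1 UMI, against 4.62% of NK-gated cells. Of the 49 C5ar1 UMIs of NK-gated cells, 46 came from the 85 cells with 20 or more microglial UMIs and 0 from those with fewer than 5, so here too the NK share gives no background level.

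Itgam, the alpha chain of CR3 and the CD11b of flow cytometry, was counted in all 16 gates. Microglia-gated cells had 314 CPM (310.3 to 318), with 253 to 411 CPM over suffixes and a median of 307. Ccl2-high, interferon and replication cells had 463, 456 and 443 CPM, 3 levels that did not differ beyond the spread over suffixes. Homeostatic cells had 291 CPM (261 to 331, median 295) against 340 to 598 CPM (median 429) in Ccl2-high cells, ranges that did not overlap. The ratio was 1.59 (1.54 to 1.65; 1.18 to 1.84 over suffixes), and 1.63 with unshared barcodes.

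Itgam was lowest in low-RNA Ddit4 cells, at 94.9 CPM (82.7 to 108), and the ratio to homeostatic cells was 0.326 (0.283 to 0.373), below 1 in 6 of 6 suffixes. That gate, as said, holds 36 cells with unshared barcodes, which had 2 Itgam UMIs (84.5 CPM, 10.2 to 305). Their ratio to homeostatic cells with unshared barcodes was 0.289 (0.035 to 1.04), an interval that includes 1. Since 98.7% of the cells of the gate carry shared barcodes, its 6 suffixes may not be separate observations. Other microglia rose from 289.7 CPM to 357 CPM when shared barcodes were left out, and all microglia from 314 to 348 CPM. In other microglia Itgam thus moved with the shared barcodes, while homeostatic cells had 291 CPM with them and 293 CPM without. The part of shared barcodes in the Itgam level was not tested. NK-gated cells had 85.4% (73.3 to 98.8%) of the microglial level, above the 11 yardstick genes, and 3 UMIs in the 14 cells with no microglial UMI. Monocyte-gated cells had 198 CPM and dendritic-gated cells 174 CPM (136 to 219).

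Cfp, which encodes properdin, had its highest levels in the dendritic and monocyte gates. Cd209a dendritic-gated cells had 489 CPM (424 to 560.4), with 363, 450 and 613 CPM in the 3 suffixes with at least 20 of them, and monocyte-gated cells 167 CPM (142 to 195), with 140, 157 and 187 CPM. The lowest dendritic suffix lay above the highest monocyte suffix. Granulocyte-gated cells came next with 53.1 CPM (26.5 to 94.9) from 11 UMIs, and 0 to 122 CPM over suffixes. Microglia-gated cells had 68 UMIs, 0.767 CPM (0.596 to 0.972), and NK-gated cells 0, which allows up to 4.49 CPM. A Cfp UMI was found in 72.3% of dendritic-gated, 38.1% of monocyte-gated and 0.179% of microglia-gated cells, at medians of 5235, 4421.5 and 2470 UMIs, and in 34.9, 12.1 and 0.0543% after thinning. Leaving out shared barcodes changed the dendritic and monocyte levels to 488 and 166 CPM. Other cells had 23.2 CPM with a wide range over suffixes, from 0 to 49.4.

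The members were then set beside all genes in pairs of microglial gates, counting genes with at least 20 CPM in either gate and a ratio of at least 1.5. In Ccl2-high over homeostatic cells, 3.58% of 5555 genes were higher by this rule and 1.19% lower. Of the 7 members that passed the CPM minimum, 3 were higher (C4b, C5ar1 and Itgam) and 0 lower. C4b passed the minimum only through the Ccl2-high gate (39.2 against 1.56 CPM), so it could only count as higher. With unshared barcodes the shares were 3.64 and 1.31% and the counts stayed at 3 and 0. The median log2 ratio was 0.49 over the 7 members and -0.04 over all genes. The 2 members outside this count are C3 and Cfp, which had under 20 CPM in all microglial gates.

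In Lpl-Fam20c over homeostatic cells 6.14% of 5667 genes were higher and 4.76% lower, and of 6 members 2 were higher (C3ar1 and C5ar1) and 0 lower. C4b fell just under the CPM minimum at 19.4 CPM. With unshared barcodes it passed, so that 3 of 7 members were higher where 5.13% of genes were higher and 4.72% lower. Itgam had a ratio of 0.940 in all cells and 1.04 with unshared barcodes, so its direction in this pair is not settled.

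In interferon over homeostatic cells 8.44% of genes were higher and 6% lower, and 4 of 7 members were higher (C1qc, C4b, C5ar1 and Itgam) and 0 lower. C1qa and C1qb had ratios of 1.37 and 1.48, just under the limit that C1qc passed with 1.54. In MHC class II over homeostatic cells 4.28% were higher and 8.03% lower, and 3 of 7 members were higher (C1qb, C4b and C5ar1) and 0 lower. C1qb had a ratio of 1.57 there, but 1.496 to 1.67 over 3 suffixes, the lowest just under the limit. C1qa and C1qc had 1.36 and 1.48. In low-RNA Ddit4 over homeostatic cells 14% were higher and 9.69% lower, and 5 of 6 members were higher (the C1q chains, C3ar1 and C5ar1) and 1 lower (Itgam). In the interferon and MHC class II pairs C4b passed the CPM minimum only through the gate where it was high. It could only count as higher there. All these pairs share the homeostatic cells as their reference, so their counts are not separate evidence.

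**Figure D4:**
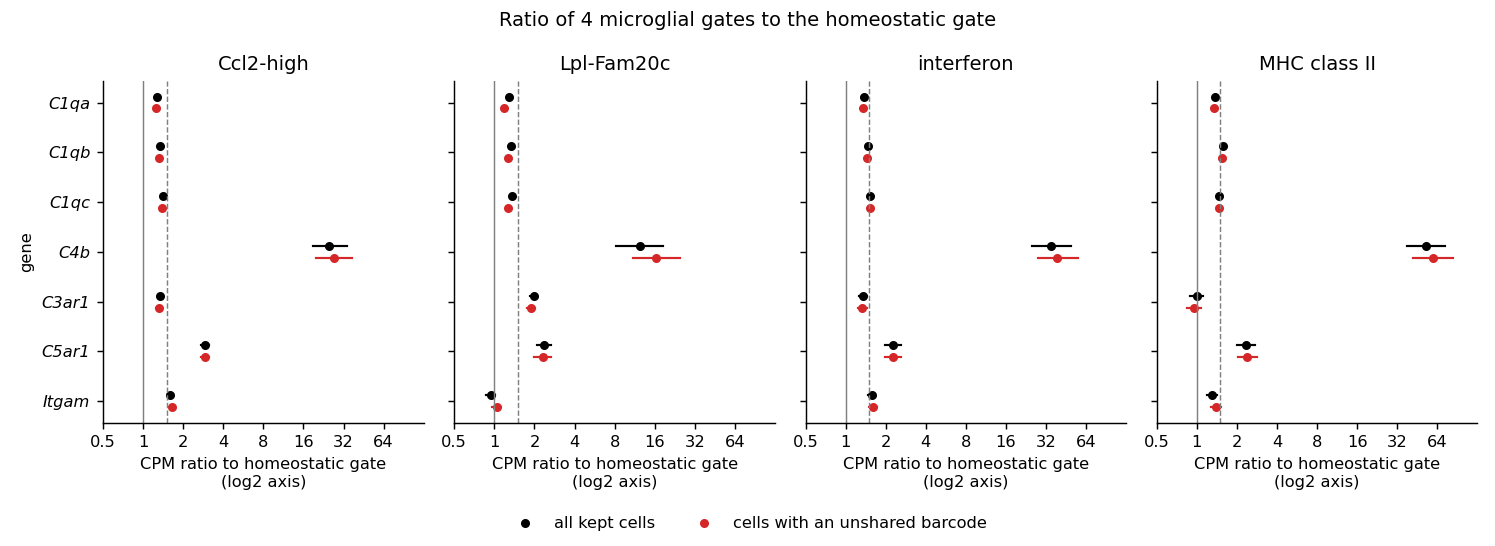
Ratio of CPM in 4 microglial gates to the homeostatic gate (log2 axis) for 7 members, with exact 95% intervals for counting error, in all kept cells (black) and in cells with an unshared barcode (red). The solid line is a ratio of 1 and the dashed line 1.5. C4b has the highest ratio in all 4 gates (25.1 in Ccl2-high cells), and C3ar1 lies at 1.98 in Lpl-Fam20c and 0.996 in MHC class II cells.

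Of 41 other complement genes, 9 reached 20 CPM in at least 1 gate, 31 did not, and C4a had no row under that symbol. The beta chain Itgb2, which pairs with Itgam in CR3 and with Itgax in CR4, had 317.5 CPM in microglia-gated and 607 CPM in phagocyte-gated cells, and Itgax 18.3 and 188 CPM. Cr1l, a membrane regulator, had 108 CPM in microglia-gated cells. Cfb, the protease of the alternative pathway, reached 26.0 CPM (60 UMIs) in interferon cells against 0.174 CPM in homeostatic cells.

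The remaining detected genes, apart from C1qbp, lay mostly outside microglia. Choroid plexus-gated cells had the highest levels of Clu (2109 CPM), Cd59a (135 CPM) and Cd55 (38.9 CPM), which encode inhibitors of complement, against 0.496, 1.74 and 0.0113 CPM in microglia-gated cells. Fcnb, a ficolin of the lectin pathway, had 22 UMIs in granulocyte-gated cells (106 CPM). C1qbp, named for binding C1q, had 76.9 CPM in microglia-gated cells and was highest in dendritic-gated cells with 153 CPM. The C1q partner proteases were close to absent, with C1ra and C1rb at 1.13 and 1.42 CPM and C1s1 at 0 UMIs in microglia-gated cells.

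Genes with the pattern most like each member were found from Pearson's r of log2(CPM + 1) over the 16 gates, among 5321 genes with at least 50 CPM in 1 gate. The gates share libraries and differ in depth, so r is a description. For the C1q sum these were Cd81, Trem2 (both 0.99), Serpine2 and Lrrc3 (0.98 each). C4b was closest to Cd72 (0.92), Hcar2 (0.88) and Ccl2 (0.86), a gene that defines 1 of the gates. C3 was closest to Lyz2 (0.98), Cxcl2 (0.96) and Tpd52 (0.95), and Cfp to AI839979, Sirpb1a and Gpr141 (0.97 each).

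The receptors had other neighbours. C3ar1 was closest to Snx24 (0.97), Abca1 and Tmem86a (0.96 each), C5ar1 to Tmcc1 (0.92), Pik3ca and Gcnt2 (0.91 each), and Itgam to Atp6v0a2 (0.93), Bin2 and Marcksl1 (0.92 each).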

How the data were processed

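Droplet-based 3′ libraries (Chromium v2 chemistry) of CD45+ cells from 6 mice were processed by the authors with Cell Ranger 3.1 (STAR, mm10) and joined in 1 matrix. The matrix deposited by the authors holds raw UMI counts per gene and barcode. The annotation release is not given in the sources used here. The study filters were applied (over 200 and at most 2500 genes, under 5% mitochondrial counts). No doublet caller was run, and doublets were limited only by the 2500-gene limit and by leaving out cells meeting more than 1 lineage gate. Since microglia were not counted as a lineage there, doublets of a microglial cell and 1 other cell type under 2500 genes were not removed. CPM, intervals and gates were computed with Python 3.11.15, numpy 2.4.6, scipy 1.17.1 and pandas 2.3.3. CPM ratios and the intervals of single counts were tested on simulated gate sums, with no spread between suffixes and no shared barcodes. These sums were drawn as Poisson counts, the model of the intervals, so the coverage of the intervals was set in advance. The intervals of ratios and the gates themselves were not tested. Gates needed a minimum of 1 to 5 marker UMIs or a minimum share of UMIs. Suffix ranges cover suffixes with at least 20 cells of a gate, and a count of 0 allows up to 3 counts. Coordinates are from GENCODE (GRCm38). Genes named are the members, complement genes of a list at 20 CPM or more in 1 gate, the 11 yardstick genes, gate markers, and for each member the 3 (C1q sum, 5) genes of highest r, of which some are not reported here. C1ra, C1rb and C1s1, under 20 CPM, were named after their values were seen. The members and lists were chosen with earlier results of these data known. Barcode suffixes carry no group in the labels and were not assigned to mice from their cell numbers, so no test was run. Alternatives covered the filters, gate limits, weighting of suffixes and cells, and leaving out each suffix. Leaving out shared barcodes, and suffix 1 in the MHC class II gate, were chosen after the data were seen.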

Additional observations from a re-analysis of the deposited data

How the results depend on the processing

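The C1q ratio of microglia-gated to NK-gated cells, 1.92, depended on the processing. It fell to 1.33 with no upper limit on genes per cell, was 3.11 when each cell had 1 vote, and 106.1 against the NK-gated cells with no microglial UMI. With 1 suffix left out at a time the ratio lay between 1.77 and 1.98, and the other alternatives stayed within the SD over suffixes of 0.313. The numbers of members at least 1.5-fold higher or lower in Ccl2-high or Lpl-Fam20c cells stayed within 1.5 times the main count in all alternatives run, with the exception that Lpl-Fam20c rose from 2 to 3 with unshared barcodes, through C4b. C4b passed the CPM minimum there only through the Lpl-Fam20c gate. The log2 ratio of C4b in Ccl2-high cells was 3.11 with no Apoe limit and otherwise 4.38 to 4.88. In Ccl2-high cells the log2 ratio of C1qa, 0.344, ran from 0.210 to 0.383 over 15 alternatives. That of C1qb, 0.430, ran from 0.274 to 0.461, and that of C1qc, 0.493, from 0.350 to 0.531. None of these changed its sign. No log2 ratio past the 1.5-fold limit changed its sign. No paired analysis was possible because the labels give the suffixes no group or replicate number and a match by cell numbers was not used. Gates were compared within suffixes as ratios, with no test. Counts limit C3, Cfp and C4b in homeostatic cells (2, 27 and 54 UMIs). Leaving out shared barcodes left few cells in the low-RNA Ddit4 (36) and phagocyte (69) gates.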

Other observations

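Barcodes outside the filters were not used in any comparison. The 893 barcodes with over 2500 genes, at a median of 9250 UMIs, had a C1q sum of 20922 CPM, C4b at 43.8 CPM, Itgam at 488 CPM and Cfp at 17.8 CPM, beside 20689, 15.02, 307 and 5.52 CPM in the kept cells. The 762 barcodes with 5% or more mitochondrial counts, at a median of 1053.5 UMIs, had a C1q sum of 26054 CPM, C4b at 47.8 CPM (54 UMIs) and Itgam at 458 CPM. C3 had 44 UMIs (4.93 CPM) in the first of these sets and 8 (7.08 CPM) in the second.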
